A study of Homo sapiens with 4 samples.

Results

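The genes described here are 8 human genes of the arrestin-domain family or of glucose sensing through ChREBP, read on 4 arrays of HepG2 cells. TXNIP, ARRDC2, ARRDC3 and ARRDC4 encode arrestin-domain proteins. The others are the transcription factor genes MLXIPL (ChREBP), MLXIP (MondoA) and MLX, and PKLR, which encodes the liver form of pyruvate kinase. They were chosen by gene name, as all probe sets with exactly 1 gene symbol that is one of these 8, and the list of names was drawn up with the ratios of these arrays in view. Their values are therefore given as a description, with no test. They have 20 probe sets among the 41091 with 1 symbol, and are 8 of the 19775 genes those probe sets read.

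HepG2 is a cell line from a human liver cancer. RNA was taken, 1 array per time, from cells given APRIL (TNFSF13, a cytokine related to tumour necrosis factor) at 200 ng/ml for 2, 6 or 12 h, and from untreated cells at 0 h. All 4 groups had first been grown in RPMI with fetal bovine serum and then kept without serum, a period that the design text puts at 24 h and the protocols call overnight. No untreated array of a later time was used here, so APRIL and hours in culture cannot be told apart. With no second culture at any time there is no replicate error, and each difference below is a difference between 2 arrays.

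Alpha-arrestins are adaptor proteins that bring HECT-type ubiquitin ligases to membrane proteins, which are then taken up from the cell surface. TXNIP, the best known of them, also binds thioredoxin and lowers glucose uptake by driving glucose transporters inwards. Its gene and ARRDC4 are known targets of MondoA and ChREBP, which pair with MLX, sense glucose 6-phosphate and bind carbohydrate response elements, and in liver ChREBP also drives PKLR and genes of fatty acid synthesis.

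The bases before the RefSeq transcription starts of TXNIP and ARRDC4, the glucose-responsive pair, are shown because both genes were close to 0 h at 2 h and lower at 6 and 12 h, as described further down. Capitals mark matches to 3 searched motifs, on both strands: the E-box CACGTG, the FOXO site TGTTTAC, and the carbohydrate response element, taken as 2 six-base words 5 bases apart that together differ from 2 E-boxes at no more than 2 bases. An exact E-box may lie inside the last of these. The TXNIP stretch is chr1:145996580-145996829 on the minus strand and the ARRDC4 stretch chr15:97960453-97960702 on the plus strand (GRCh38.p14).
TXNIP: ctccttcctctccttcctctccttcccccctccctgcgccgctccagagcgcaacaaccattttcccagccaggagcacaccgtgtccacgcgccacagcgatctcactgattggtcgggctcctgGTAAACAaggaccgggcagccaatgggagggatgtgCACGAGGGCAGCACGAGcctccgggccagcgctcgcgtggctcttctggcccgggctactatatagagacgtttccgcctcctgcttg
ARRDC4: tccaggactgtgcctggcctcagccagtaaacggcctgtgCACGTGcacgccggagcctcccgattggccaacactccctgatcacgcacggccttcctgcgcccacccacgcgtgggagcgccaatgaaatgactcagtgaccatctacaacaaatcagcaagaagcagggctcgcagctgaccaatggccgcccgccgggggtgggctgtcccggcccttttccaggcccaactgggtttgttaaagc
In TXNIP the first capitals are the FOXO site, read on the other strand, at bases -124 to -118 from the start, and the longer run is the carbohydrate response element at bases -88 to -72, with 2 differences from a perfect pair. In ARRDC4 the capitals are an E-box at bases -210 to -205, and no element of the paired form lies in this window.

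Shorter stretches hold the motif matches of the other members before their starts, from windows of 250 bases before to 50 after a RefSeq start. They are chr5:91380108-91380137 on the minus strand for the downstream start of ARRDC3, chr17:42567038-42567067 on the plus strand for MLX, and chr1:155301618-155301647 and chr1:155301055-155301084 on the minus strand for the upstream and downstream starts of PKLR.
ARRDC3, FOXO site: agcccggcactTGTTTACcacggcgcggcc
MLX, E-box: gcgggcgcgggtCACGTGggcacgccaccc
PKLR, E-box: aaaatatctattCACGTGgatgaccagata
PKLR, carbohydrate response element: gtaagcCACGGGGCACTCCCGTGgttcctg
The windows of ARRDC2, MLXIPL and MLXIP held none of the 3 motifs. Among 35116 such RefSeq windows of all genes, 7.26% held the E-box, 1.01% the carbohydrate response element and 3.42% the FOXO site. A match says only that these letters are there, and binding was not measured.

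The deposited values are log2 values centred so that every probe set has a median of 0 on these arrays, so they hold no expression level and the 8 genes cannot be ordered by abundance. With 4 arrays, the middle 2 values of a probe set lie at equal distances above and below 0. A gene's ratio between 2 arrays is the median over its probe sets, and a gene is counted as past 2-fold at a log2 ratio of 1 or more in size. Over all genes, the median ratio against 0 h was 0.016 at 2 h, 0.047 at 6 h and 0.0100 at 12 h, and the robust SD was 0.16, 0.20 and 0.24. The 18 spike-in probe sets, which read bacterial and phage sequences added at hybridization, had medians of 0.012, 0.055 and -0.35 at those times. Being added at that stage, they do not measure RNA per cell. Relative to the spike-ins every ratio of 12 h over 0 h below is thus 0.35 higher and every ratio of 12 h over 6 h 0.43 higher. On that scale the median of all genes at 12 h over 0 h is 0.36, with 9.48% of genes below 0, 0.384% past 2-fold lower and 3.51% past it higher. A 2-fold call at 12 h that this scale ends or adds is named beside its gene or list.

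At 2 h none of the 8 genes was past 2-fold in either direction, against 0.0101% of all genes past it lower and 0.0354% past it higher. Their ratios ran from -0.025 for ARRDC4 to 0.25 for ARRDC2, with a median of 0.045. At 6 h, 1 of the 8 was past 2-fold lower (ARRDC4) and 0 higher, against 0.283% and 0.101% of all genes. The median of the 8 was -0.18, with 6 of 8 below 0, where 39.7% of all genes were. At 12 h, 2 of the 8 were past 2-fold lower (ARRDC3 and ARRDC4) and 0 higher, against 0.986% and 0.946% of all genes, and the median was -0.46 with 5 of 8 below 0, where 47.7% of all genes were. The count relative to the spike-ins was also 5 of 8, where 9.48% of all genes were below 0. These shares of all genes are given for scale only, because the genes were picked with these ratios known.

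**Figure D1:**
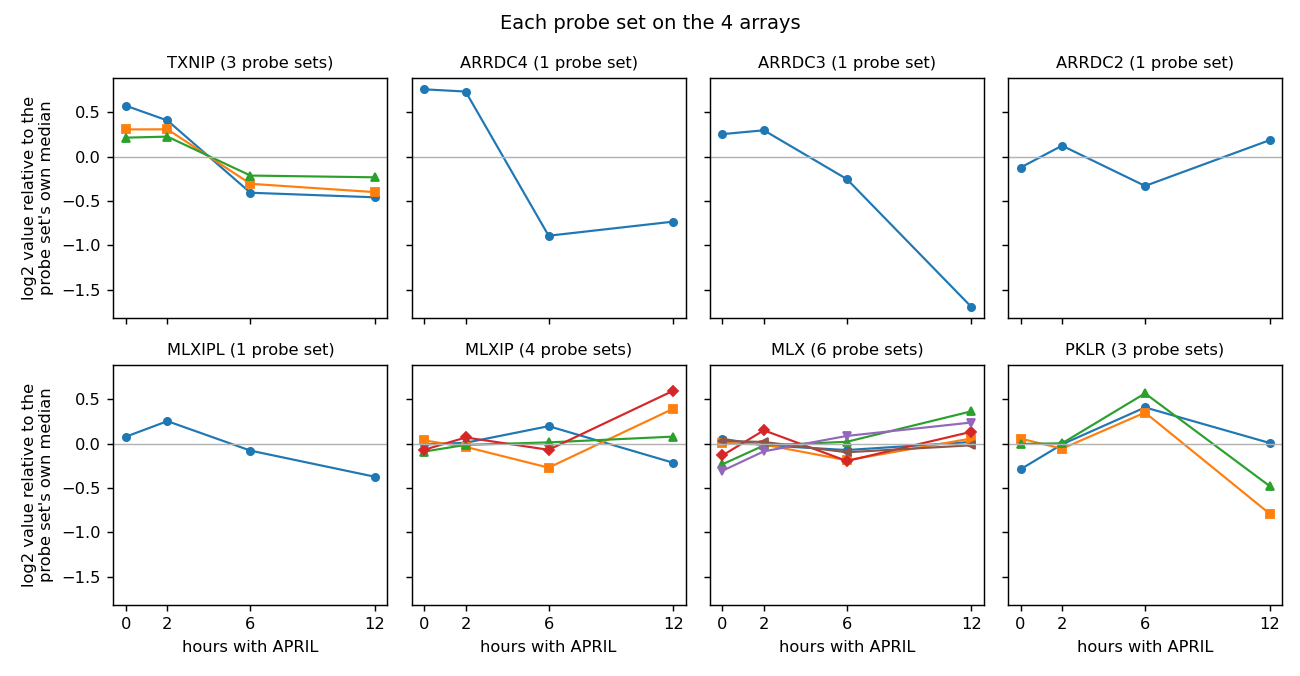
Log2 value with each probe set centred on its median (vertical axis) against hours with APRIL (horizontal axis), 1 array per time, with 1 line per probe set and 1 panel per gene. TXNIP and ARRDC4 are close at 0 and 2 h and lower at 6 and 12 h, ARRDC3 is lowest at 12 h, and the 3 lines of PKLR peak at 6 h.

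TXNIP was lower at 6 and 12 h than at 0 and 2 h in each of its 3 probe sets. The first probe set, 201008_s_at, read 0.57 untreated and 0.41, -0.41 and -0.46 after 2, 6 and 12 h. The second, 201009_s_at, read 0.31, 0.31, -0.31 and -0.40 in this order, and the third, 201010_s_at, read 0.21, 0.23, -0.21 and -0.23. The probe sets differ in the size of the step, not in its place. They read 1 gene on the same arrays, so they are not replicates of each other. Against 0 h the gene's ratio was 0.0013 at 2 h, -0.61 at 6 h (SD 0.28 over 3 probe sets) and -0.71 at 12 h (SD 0.29), the last a 1.63-fold lower value. At 6 h, 284 of 19775 genes had a lower ratio than TXNIP, and at 12 h 486 had. Probe set 201008_s_at alone was at -1.03 at 12 h, and the gene's 12 h ratio was -0.35 relative to the spike-ins. In a bulk extract, less transcript per cell and fewer cells with the transcript cannot be told apart. All 3 probe sets have names ending in _s_at, so they can match more than 1 transcript.

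ARRDC4, an alpha-arrestin close to TXNIP, had the widest step of the 8 between 2 and 6 h. Its single probe set, 225283_at, read 0.76 untreated and 0.73, -0.89 and -0.73 after 2, 6 and 12 h. The value at 2 h was level with that at 0 h, and both later arrays lay far below both early ones. The ratio was -1.63 for 6 h over 2 h (3.09-fold lower), and only 4 of 19775 genes had a lower one. At 12 h it was -1.49 against 0 h (2.81-fold lower), or -1.14 relative to the spike-ins, and 0.16 against 6 h. For 6 h over 2 h TXNIP was at -0.61, ARRDC3 at -0.55 and ARRDC2 at -0.45, and 7 of the 8 genes were below 0, against 42.8% of all genes, so TXNIP and ARRDC4 were not alone in lying lower in this step. In the next step, 12 h over 6 h, TXNIP was at -0.052. Relative to the spike-ins that next step was 0.38 for TXNIP and 0.59 for ARRDC4. Against the mean of the other 3 arrays in place of 0 h, ARRDC4 was at -0.93 at 12 h, which ends the 2-fold call. That mean holds the 6 h array, at -0.89. With 1 probe set, ARRDC4 has no second reading on these arrays.

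ARRDC3, which adapts NEDD4-type ligases to membrane receptors such as the beta-2 adrenergic receptor, was lowest at 12 h. Its probe set, 224797_at, read 0.25 untreated and 0.30, -0.25 and -1.70 after 2, 6 and 12 h. The 12 h array stands apart from the other 3, and 6 h lies between it and the early arrays. Against 0 h the ratio was -0.51 at 6 h and -1.95 at 12 h, a 3.86-fold lower value, and 13 of 19775 genes were lower still at 12 h. Relative to the spike-ins it was -1.60. From 6 to 12 h ARRDC3 was at -1.44, beside 0.16 for ARRDC4 and -0.052 for TXNIP.

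ARRDC2, a less studied alpha-arrestin that shares the arrestin fold, stayed within 2-fold at every time. Its probe set, 226055_at, read -0.12 untreated and 0.12, -0.33 and 0.19 after 2, 6 and 12 h. The lowest array was that of 6 h, and 12 h was the highest. After -0.45 for 6 h over 2 h, the ratio was 0.52 for 12 h over 6 h, and it was 0.31 over the whole course. Among the 4 arrestin-domain genes, 3 had negative ratios at 12 h and ARRDC2 a positive one.

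**Figure D2:**
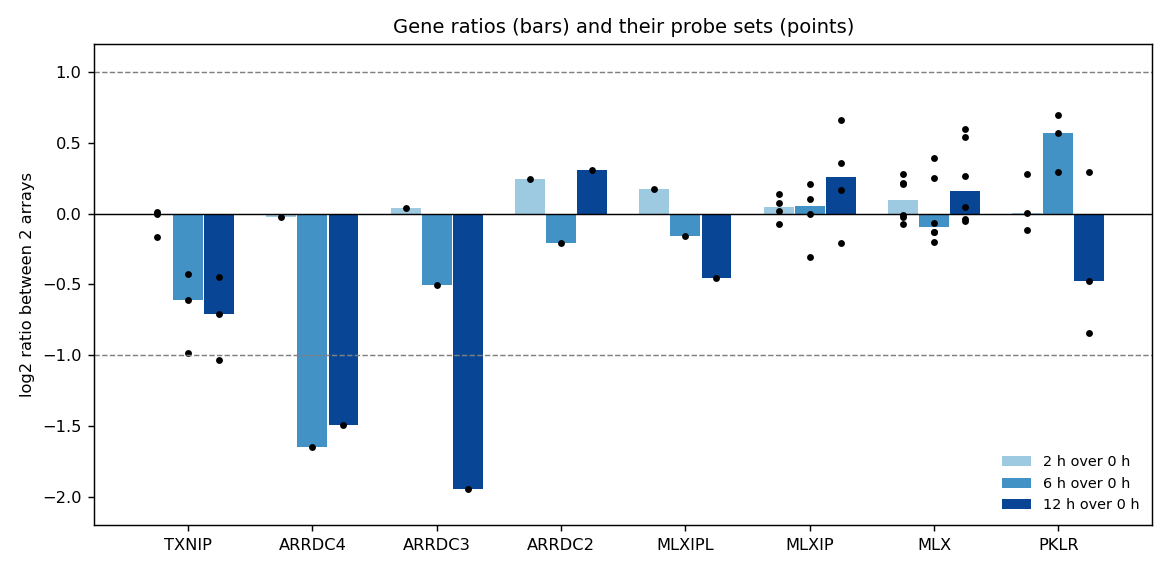
Log2 ratio against the 0 h array (vertical axis) for the 8 genes, with a bar for 2, 6 and 12 h, the median over a gene's probe sets, and a black point for each probe set. Dashed lines mark 2-fold. ARRDC4 passes it at 6 and 12 h and ARRDC3 at 12 h, while the bars of MLXIP and MLX stay small and their points lie on both sides of 0.

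The 3 glucose-sensing factors stayed within 2-fold at every time. MLXIPL encodes ChREBP, the factor of liver and fat, and its probe set 221163_s_at read 0.079 untreated and 0.25, -0.079 and -0.37 after 2, 6 and 12 h. The highest array was that of 2 h and the lowest that of 12 h. Against 0 h its ratio was 0.17 at 2 h, -0.16 at 6 h and -0.45 at 12 h, and the last was -0.100 relative to the spike-ins.

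MLXIP encodes MondoA, the paralogue best studied in muscle, and its 4 probe sets disagreed. At 12 h over 0 h they ran from -0.21 for 1554886_a_at to 0.67 for 225157_at, around a median of 0.26 (SD 0.36). The 2 probe sets whose names end in plain _at, 202519_at and 225157_at, were the higher ones at 12 h, at 0.36 and 0.67. At 2 and 6 h the gene was at 0.047 and 0.052 against 0 h.

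MLX encodes the shared partner of both, and its 6 probe sets stayed within 2-fold throughout. Against 0 h the gene was at 0.10, -0.095 and 0.16 after 2, 6 and 12 h (SD 0.29 over 6 probe sets at 12 h). At 12 h the highest were 213708_s_at at 0.60 and 217910_x_at at 0.54, and the lowest, 231401_s_at, was at -0.049. Both MLXIP and MLX thus had a positive gene ratio at 12 h, smaller than the SD between their own probe sets. Without probe sets that can match several transcripts MLXIP was at 0.51 and MLX, on 1 probe set, at -0.036, so the sign for MLX depends on the probe sets taken. Relative to the spike-ins MLXIP was at 0.62 and MLX at 0.51 at 12 h, beside 0.36 for the median of all genes.

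PKLR, whose enzyme makes pyruvate in the last step of glycolysis, was highest at 6 h in all 3 of its probe sets. Probe set 207858_s_at read -0.29 untreated and -0.0080, 0.41 and 0.0080 after 2, 6 and 12 h. Probe set 210451_at read 0.057, -0.057, 0.35 and -0.79 in this order, and 222078_at read -0.0036, 0.0036, 0.57 and -0.48. The 12 h array was the lowest in the last 2 and not in the first, where 0 h was. Against 0 h the gene was at 0.57 at 6 h (SD 0.21 over 3 probe sets), with 261 of 19775 genes higher, and at -0.47 at 12 h (SD 0.58), where the probe sets differ in sign. This known ChREBP target was therefore on the opposite side of 0 from TXNIP and ARRDC4 at 6 h.

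Step by step, 1 of the 8 genes was past 2-fold lower for 6 h over 2 h (ARRDC4) and 0 higher, against 0.329% and 0.116% of all genes. For 12 h over 6 h, 2 were past 2-fold lower and 0 higher, against 0.885% and 0.799% of all genes. These were ARRDC3 and PKLR, the second at -1.04, where its probe sets were at -0.40, -1.14 and -1.04. The mean over its probe sets was -0.86, and its ratio relative to the spike-ins -0.61, so this call rests on the summary and the scale. Successive steps share the 6 h array, so a chance deviation of that array would enter both with opposite sign.

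**Figure D3:**
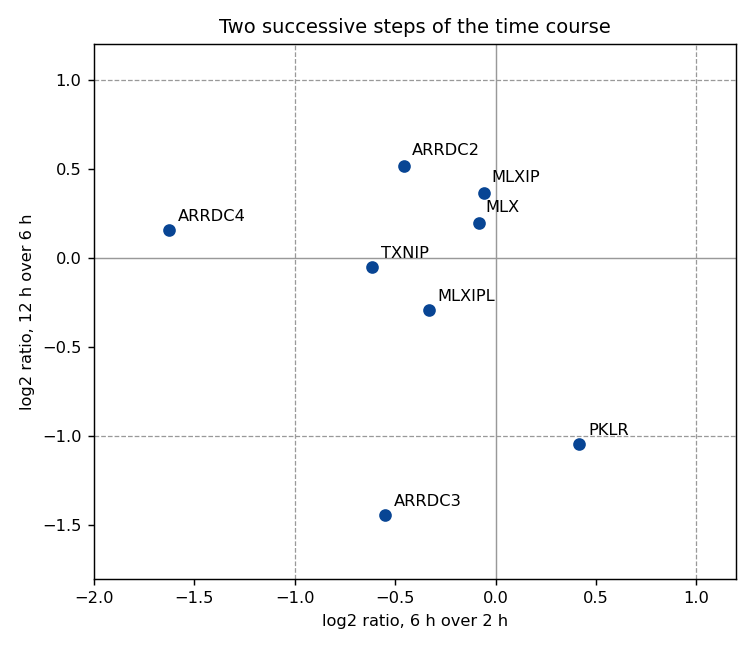
Log2 ratio for 12 h over 6 h (vertical axis) against that for 6 h over 2 h (horizontal axis), 1 point per gene, with dashed lines at 2-fold. ARRDC4 lies far left near the horizontal zero line, ARRDC3 is the lowest point, and PKLR is the only gene right of the vertical zero line.

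The genes whose pattern lay nearest were looked up for ARRDC3 and ARRDC4, the members whose gene value ranged over at least 1 log2 unit. A gene value is the median of its probe sets' values on an array. By this measure PKLR ranged over 0.89, although the median of its probe sets' ratios for 12 h over 6 h was -1.04. Likeness was the Euclidean distance between gene values over the 4 arrays, and the 4 nearest of all other genes are named. For ARRDC4 they were IFT70B (distance 0.12), an intraflagellar transport gene, PRORSD1P (0.21), LPP-AS2 (0.29) and ACSL4 (0.30), an acyl-CoA synthetase acting on arachidonic acid. In the steps from 2 to 6 h and from 6 to 12 h IFT70B was at -1.55 and 0.048, beside -1.63 and 0.16 for ARRDC4. For ARRDC3 they were LEAP2 (0.16), a liver-expressed peptide that antagonises the ghrelin receptor, TMEM141 (0.19), DAB2 (0.29), an endocytic adaptor, and GPX3 (0.32), the plasma glutathione peroxidase. LEAP2 was at -1.87 and DAB2 at -1.95 (median of 7 probe sets) for 12 h over 0 h, beside -1.95 for ARRDC3. The search ran over 19775 genes with 4 values each, and these likenesses were not tested.

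Genes around the 8 were read from lists chosen with earlier results of these arrays known, and every list is described by counts and its median. The shares of all genes are those given above, and at 12 h over 0 h 47.7% were below 0. In the list of other arrestin genes 4 of 6 could be read, and all 4 were below 0 at 12 h, at a median of -0.12, with the largest, ARRDC1, at -0.17. These ratios are small, and ARRB1 was at -0.042 with its 7 probe sets on both sides of 0, from -0.34 to 1.49 (SD 0.82). In the MLX and MAX network 8 of 9 could be read. At 12 h 6 were above 0 with none past 2-fold, at a median of 0.26, and MXI1, a MYC antagonist, was the largest at 0.94, or 1.29 relative to the spike-ins, which is past 2-fold. Of the ubiquitin ligases that bind alpha-arrestins all 9 were within 2-fold, with medians of -0.13 and 0.067 after 6 and 12 h, and WWP1 was the largest at 0.39.

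Of the genes of glucose uptake and glucose 6-phosphate, 1 of 17 was past 2-fold lower at 12 h and none higher, and 14 were below 0, several of them close to it, at a median of -0.28. The 1 called was the glucose transporter SLC2A3 (GLUT3), at -1.23 after 6 h and -2.75 after 12 h (SD 0.35 over 3 probe sets). At 6 h the list's median was 0.014, with 7 of 17 below 0. Other ChREBP targets had a median of 0.065 at 6 h, with 7 of 18 below 0 and none past 2-fold. G6PC1 and SLC2A2 are in this list and in the glucose list, so the counts of both include them. At 12 h, 14 of 18 were below 0 at a median of -0.13, and 2 were past 2-fold lower, the desaturase gene SCD at -1.44 (SD 0.65 over 4 probe sets) and the lipid droplet gene PNPLA3 at -1.14 (SD 0.086 over 2). On the spike-in scale SCD was at -1.09 and PNPLA3 at -0.79, which ends the call of PNPLA3. On that scale 7 of the 17 glucose genes and 6 of the 18 ChREBP targets were below 0, where 9.48% of all genes were. At 6 h, when TXNIP and ARRDC4 were already low, SCD was at -0.33 and PNPLA3 at -0.41. Relative to the spike-ins, every list median of this and the next paragraphs that lies below 0 at 12 h turns positive, as each is less than 0.35 below 0. So does that of the other arrestin genes. The shift is the same for every gene, and each of these list medians stays below that of all genes, 0.36 on that scale. The glucose list was then at 0.077 and the ChREBP targets at 0.23. Of the 8 genes described 5 were still below 0, among them MLXIPL at -0.100 and PKLR at -0.12. This is a count of genes picked with these ratios known, so it cannot be set against the list medians.

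In the thioredoxin system, whose redox protein TXNIP binds, 13 of 15 genes could be read. None was past 2-fold at 6 h, at a median of 0.095, and at 12 h 7 were below 0 and 6 above, at a median of -0.092, with the glutaredoxin gene GLRX2 at 1.02 on 1 probe set. Of the list of 3 TXNIP partners and related genes, DDIT4 (REDD1), an inhibitor of mTORC1 that can bind TXNIP, was at -0.27, 0.47 and 1.13 at 2, 6 and 12 h over 0 h, on 1 probe set, and the list's median at 12 h was 0.051. Among FOXO and fasting genes 10 of 13 were above 0 at 12 h, at a median of 0.12, and BCL6, a transcriptional repressor, was the 1 past 2-fold, at 1.78 (SD 0.085 over 3 probe sets). On the spike-in scale all 13 were above 0, where only 9.48% of all genes were below 0. KLHL24 was also past 2-fold on that scale, at 1.22. Its 5 probe sets disagreed, and before that shift they ran from -0.78 to 1.38 at 12 h over 0 h (SD 0.84). TXNIP and ARRDC3, which have a FOXO site in a window, were below 0 at this time. A link between these sites and the ratios was not tested. In the list of AMPK subunits and O-GlcNAc cycling 6 of 9 were above 0 at a median of 0.21, the largest being PRKAB2, an AMPK subunit gene, at 0.70, or 1.05 and past 2-fold relative to the spike-ins.

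**Figure D4:**
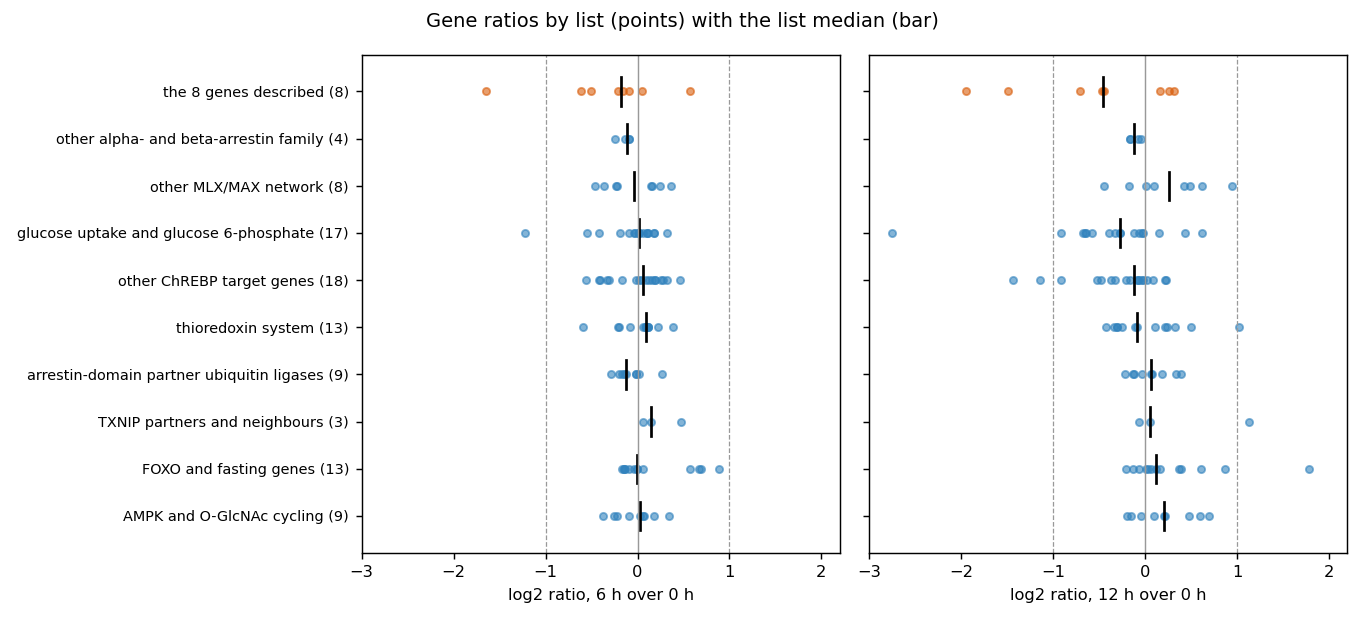
Log2 ratio (horizontal axis) for 6 h over 0 h on the left and 12 h over 0 h on the right, 1 point per gene and 1 row per list, with the number of genes read in brackets, a black bar at the median and dashed lines at 2-fold. The 8 genes described (orange) have the lowest median in both panels, at -0.18 and -0.46, and they were picked with these ratios known.

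Because the values hold no level, the liver identity of the cells could not be checked from marker levels. Of 8 hepatocyte markers 7 could be read, with medians of 0.045 and -0.017 after 6 and 12 h. Only APOB was past 2-fold, at -1.60 at 6 h and -1.08 at 12 h, with its 2 probe sets far apart (SD 1.97 and 1.40), and relative to the spike-ins its 12 h ratio was -0.73, within 2-fold. Of 11 markers of immune, endothelial and fibroblast cells 10 could be read, with none past 2-fold, medians of 0.088 and 0.079 after 6 and 12 h, and a range at 12 h from -0.30 to 0.89. The largest was PDGFRB, a receptor of fibroblasts and pericytes, on 1 probe set, and relative to the spike-ins it was past 2-fold, at 1.25. Their part in the ratios of the 8 genes was not tested.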

How the data were processed

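Total RNA of HepG2 cells was hybridised to Affymetrix U133 Plus 2.0 arrays, 4 in all. The deposited log2 values come from RMA (version not given), per the submitters' processing notes, and cover 54675 probe sets. RMA corrects background, equalises array distributions and summarises probes, so a shift common to most genes is removed. Each probe set's median over the arrays is 0 within 5e-07, so the values were centred by the authors or their software. No source used here names that step, the log base or the sign. Base 2 was taken from RMA, and a higher value as more transcript.

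Probe sets were named from the platform annotation, updated by gene identifier to RefSeq (GRCh38.p14). Those with several symbols (1801) or none (11721) and 62 controls were left out. Ratios between 2 arrays were computed per probe set in pandas 2.3.3 under Python 3.11.15, and a gene took the median of its probe sets' ratios. With 1 array per time no test was run, and the number of arrays limits the precision. The computation was tested on simulated data.

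The 8 genes and all lists were chosen with earlier results of these data known. List genes named are those past 2-fold against 0 h on either scale, at most 4 per list and time, or else the one with the largest ratio at 12 h. ARRB1 is named as well, for the spread of its probe sets, and so are G6PC1 and SLC2A2, which are in more than 1 list. Alternatives were centring on array medians or spike-ins, leaving out probe sets with names ending in _s_at, _x_at or _a_at, the mean or the widest-ranging probe set per gene, the mean of the other 3 arrays in place of 0 h, and a 1.5-fold threshold. Promoter sequences are RefSeq's (GRCh38.p14), and all 8 genes matched, with 12 windows. A planned comparison of protein sequences was not run.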

Additional observations from a re-analysis of the deposited data

How the results depend on the processing

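No paired analysis was possible because each time has 1 array. No called ratio of the 8 genes changed sign under any of the 6 other ways of taking ratios, where the way applied. This outcome was largely fixed in advance. ARRDC3 and ARRDC4 have 1 plain _at probe set each, so the choices among probe sets return the same ratio. Centring moved ratios by at most 0.43, too little to reverse one past 2-fold. The mean of the other 3 arrays was used only for comparisons with 0 h. Centring on array medians left all counts within 1.5 times. Centring on the spike-ins left 1 of the 8 past 2-fold lower for 12 h over 6 h (ARRDC3), where 2 were counted, and gave over all genes 12 higher for 6 h over 0 h, 76 lower and 694 higher for 12 h over 0 h, 15 higher in the step from 2 to 6 h, and 53 lower and 733 higher in that from 6 to 12 h. The mean over probe sets likewise left 1 of the 8 lower for 12 h over 6 h. Without probe sets that can match several transcripts TXNIP and MLXIPL have no value, and MLX was at -0.036 at 12 h. Over all 16788 genes left, 1 was past 2-fold lower and 2 higher for 2 h over 0 h, with none of the 6 members left among them. The widest-ranging probe set put TXNIP at -1.03 for 12 h over 0 h, past 2-fold, so that 3 of the 8 were lower there, and over all genes gave 10, 327, 508, 353 and 278 lower in the 5 comparisons in the order 2, 6 and 12 h over 0 h, 6 h over 2 h, 12 h over 6 h, and 87, 513, 105 and 351 higher in all but the first of them. It takes the extreme reading of each gene by construction. Against the mean of the other 3 arrays, ARRDC4 was at 1.02 at 2 h, so 1 of the 8 was past 2-fold higher. That mean holds the low 6 and 12 h arrays, and against 0 h alone ARRDC4 was at -0.025. At 12 h ARRDC4 was at -0.93, against a mean that holds the low 6 h array, so 1 was lower there (ARRDC3). ARRDC3 at 6 h was at 0.13, since the mean used there holds the 12 h array. Over all genes this gave 4 lower and 16 higher at 2 h and 33 lower at 6 h. At 1.5-fold, 2 of the 8 (TXNIP and ARRDC4) were lower at 6 h, against 0 h as against 2 h. Over all genes the counts, in the same order, were then 68, 324, 731, 410 and 673 lower and 61, 227, 881, 311 and 694 higher. Signal over background is not in the values, so dim probe sets could not be set apart.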
